A study of Homo sapiens with 12 samples.

Results

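Homologous recombination repairs broken DNA by copying from the sister chromatid, and the Fanconi anemia pathway unhooks crosslinks between the strands and hands the resulting breaks to that machinery. In both, ends are cut back, the exposed single strand is coated by RPA, and BRCA2 then helps to build the filament that searches for the matching sequence. Inherited loss of many of these genes causes bone marrow failure or leukemia, which makes them of interest in blood cells. The RNA of 43 such genes was followed here after knockdown of USP15, a deubiquitinating enzyme. The genes were chosen by name, as members of these pathways. Both count tables listed all 43, among 26226 genes in KBM7 and 28328 in K562, and all 43 passed the filter on low counts in each line.

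KBM7 and K562 are established lines from chronic myeloid leukemia in blast crisis. Cells were transfected with siUSP15, a pool of siRNAs against USP15, or with siCtrl, a non-targeting pool, and harvested after 72 h with no DNA-damaging agent named in the sources used here. There were 2 siUSP15 and 2 siCtrl libraries of KBM7, and 4 siUSP15 and 4 siCtrl libraries of K562. Each condition used 1 siRNA pool, so loss of USP15 and any other effect of that pool cannot be told apart. No source says that libraries of a group came from separate cultures, so p-values measure the spread between these libraries.

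USP15 was lowered in every knockdown library. In KBM7 it had 113.0 and 114.2 normalized CPM (counts scaled to a common library total by TMM) with siUSP15, against 209.8 and 215.8 with siCtrl, which left 53.4% (log2 fold change -0.91, SE 0.04, edgeR adjusted p = 1.58e-07). In K562 it had 115.7, 134.3, 191.2 and 196.7 normalized CPM with siUSP15, against 269.1, 274.9, 342.8 and 330.0 with siCtrl, and 52.4% was left. The groups did not overlap in either line, and an exact permutation test of the K562 libraries gave a 2-sided p = 0.0286, the smallest that 70 regroupings allow. Regrouped only within replicates 1 and 2 and within replicates 3 and 4, the exact permutation p was 0.0556, the smallest that 36 regroupings allow.

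Libraries of K562 separated into sets, with replicates 1 and 2 apart from replicates 3 and 4. Between replicates of 1 group the chi-square per degree of freedom was 1.73 to 4.94 within sets and 33.3 to 53.5 across them. K562 is therefore given both without and with the set as a term in the fit. Totals were 23450607 to 29441118 counts in KBM7 and 23020401 to 43566543 in K562. Markers set the lines apart, with PTPRC at 447 to 491 CPM (not TMM-scaled, as for the other markers here) in KBM7 and 16.5 to 44.8 in K562, and fetal globin HBG1 at 0.106 to 0.306 in KBM7 and 390.0 to 530.0 in K562. Of 13 markers of other cell types, those above 10 CPM in some library were KRT18, KRT19 and EPCAM in K562, EPCAM at 82.5 to 97 CPM, and KRT18 at 56.8 to 72 CPM and PECAM1 at 10.4 to 28.1 CPM in KBM7.

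Most of the 43 genes stayed close to their control level in both lines. In KBM7, 5 were higher with siUSP15 (BRCA1, BARD1, RAD51D, RAD50 and NBN), 2 were lower (RNF168 and TP53BP1) and 36 did not pass an edgeR adjusted p of 0.05. That is 16.3% of the genes, against 29% of all 14980 genes tested, 13.2% of which were higher and 15.8% lower. Among the 10392 genes in the same range of mean expression, 34.4% were called. The median log2 fold change of the 43 was 0.03, against 0.00 over all genes, and the median absolute change was 0.09, against 0.16 over all genes and 0.13 over those in the same range of expression. The 95% interval lay within 1.5-fold of no change for 42 genes, RAD51D being the exception.

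In K562 without the set term, no gene of any kind passed the threshold by edgeR, 0% of 13731, the lowest adjusted p being 0.183. USP15 itself had that value (log2 fold change -0.93, SE 0.18), against an edgeR adjusted p of 4.67e-05 with the set term (-0.96, SE 0.06). The fit without the term thus missed the knocked-down gene too, and its lack of calls does not show that the 43 were unchanged. At an unadjusted p under 0.05, 1447 genes (10.5%) and 1 of the 43, UBE2T, were past it, and DESeq2 called 0 of the 43 and 322 of all genes (2.35%), while limma-voom called 0 of either. With the set term, SLX4 was higher, UBE2T and RPA2 were lower and 40 did not pass. The share called was 6.98%, against 15.8% of all genes, 6.88% higher and 8.9% lower, and against 19% of genes in the same range of expression. The median absolute change of the 43 was 0.07, against 0.11 over all genes and 0.09 over those in the same range. All 43 intervals lay within 1.5-fold. With the replicate numbers as a block instead, UBE2T and RPA2 passed (adjusted p = 0.0379 and 0.0382), SLX4 did not (0.0848), and 3% of all genes were higher and 4.44% lower.

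**Figure D1:**
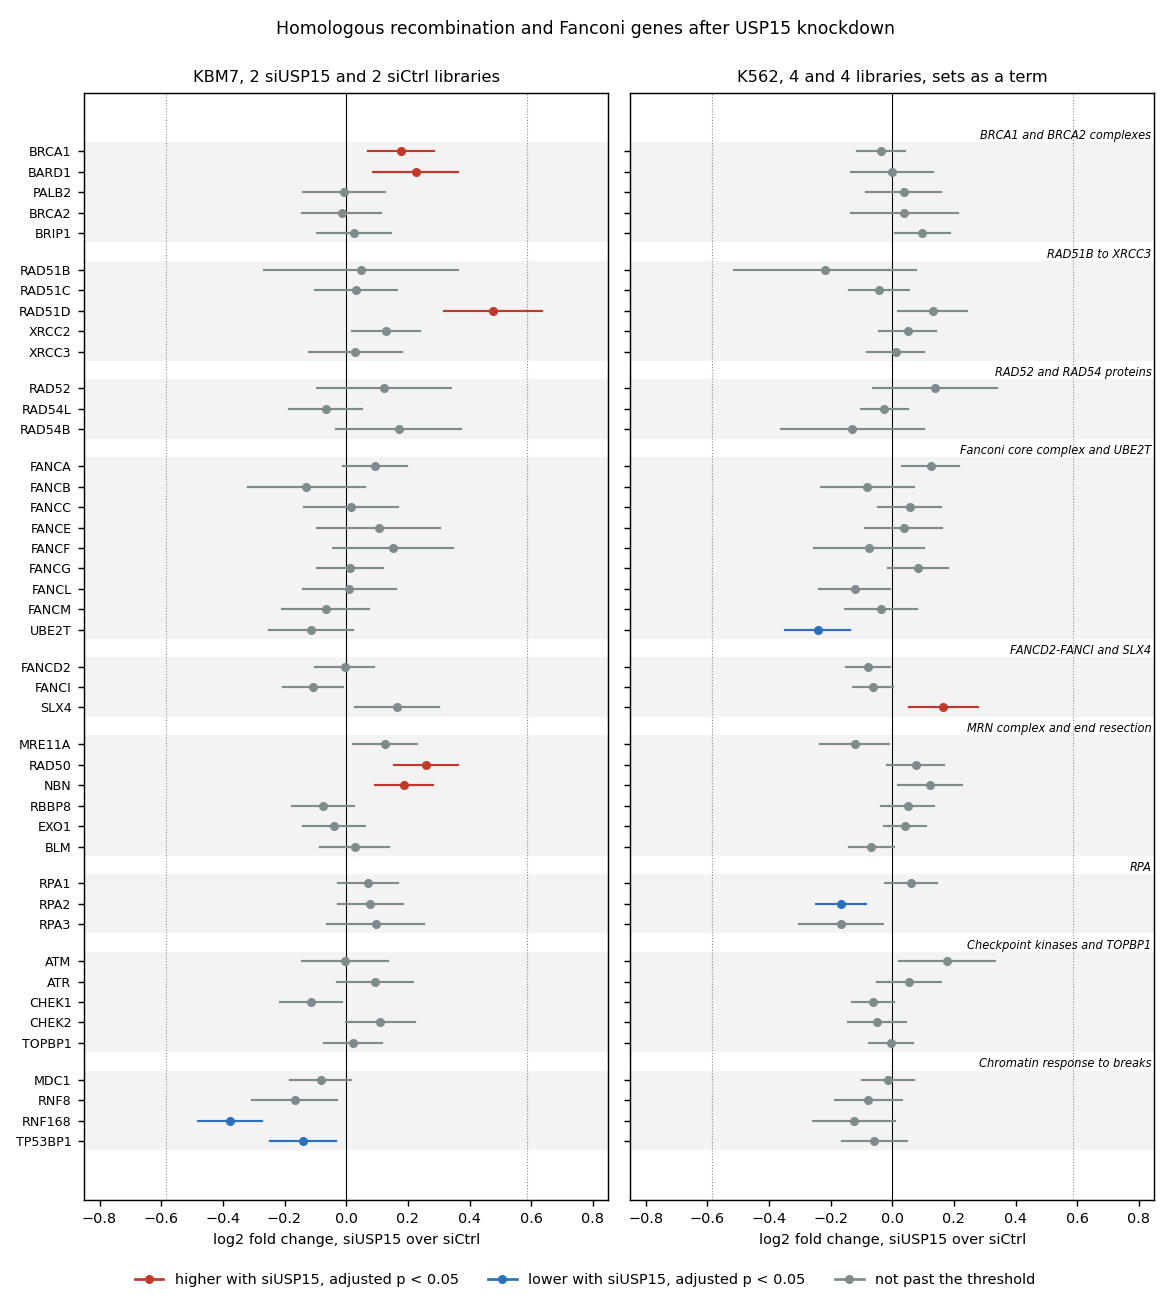
Log2 fold changes, siUSP15 over siCtrl, of the 43 genes by role in KBM7 (left) and K562 with the set term (right). Points are edgeR estimates, bars are 95% intervals and dotted lines mark 1.5-fold. In KBM7 5 genes are called higher and 2 lower, in K562 1 higher and 2 lower, and RAD51D in KBM7 is the only gene whose interval crosses a dotted line.

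**Figure D2:**
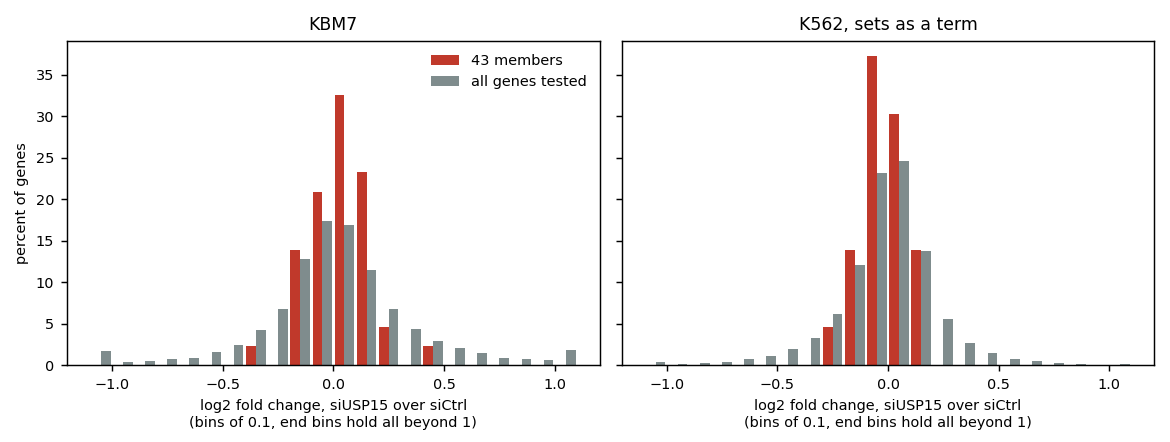
Percent of the 43 genes (red) and of all genes tested (grey) in bins of log2 fold change, siUSP15 over siCtrl, in KBM7 (left) and K562 with the set term (right). The 43 genes lie closer to 0 than all genes do, with a median absolute log2 fold change of 0.09 against 0.16 in KBM7 and 0.07 against 0.11 in K562. For genes in the same range of expression as the 43 it is 0.13 in KBM7 and 0.09 in K562.

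The same sign in both lines was seen for 14 genes that were positive and 11 that were negative, while 13 were positive in KBM7 alone and 5 in K562 alone. None of the 43 was called in both lines, where 16.3% were called in KBM7 and 6.98% in K562 with the set term. The matching counts of signs and of shared calls over all genes were not made. These counts are therefore not read as a trait of the 43. Summed over the 43 genes, KBM7 held 3691 to 3794 normalized CPM with siUSP15 and 3678 to 3741 with siCtrl, and K562 3180 to 3356 with siUSP15 and 3228 to 3328 with siCtrl, so the groups overlapped. The sum over 38 S-phase and proliferation genes, whose RNA follows the cell cycle as that of many repair genes does, overlapped as well, at 9448 to 9454 with siUSP15 and 9375 to 9665 with siCtrl in KBM7, and at 7642 to 8797 with siUSP15 and 7455 to 9156 with siCtrl in K562. Within the K562 sets this sum did not overlap, being above the controls in replicates 1 and 2 (7642 and 7782 with siUSP15, against 7455 and 7575 with siCtrl) and below them in replicates 3 and 4 (8797 and 8650 with siUSP15, against 9156 and 9025 with siCtrl). The part of this in the single-gene results was not tested.

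Promoters are shown for the genes with the largest rise and fall in KBM7 (RAD51D and RNF168), for that with the largest fall in K562 (UBE2T) and for 2 with an E2F site (FANCD2 and EXO1), since E2F factors drive many replication and repair genes. The sequences are from RefSeq, build GRCh38.p14, and run from 250 bases before to 50 bases after the start, 5′ to 3′ on the strand of the gene. Capitals mark an E2F site (TTTCCCGC, TTTCGCGC, TTTGCCGC or TTTGGCGC), a CCAAT box (CCAAT) or a CHR element (TTTGAA), searched on both strands.
RAD51D, chr17:35119709-35120008, minus strand: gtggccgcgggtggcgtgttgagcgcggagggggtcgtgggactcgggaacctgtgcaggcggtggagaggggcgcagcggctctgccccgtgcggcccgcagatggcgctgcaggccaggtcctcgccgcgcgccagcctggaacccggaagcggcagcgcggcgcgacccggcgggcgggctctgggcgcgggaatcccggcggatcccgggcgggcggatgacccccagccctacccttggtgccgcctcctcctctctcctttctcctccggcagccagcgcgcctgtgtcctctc
RNF168, chr3:196503719-196504018, minus strand: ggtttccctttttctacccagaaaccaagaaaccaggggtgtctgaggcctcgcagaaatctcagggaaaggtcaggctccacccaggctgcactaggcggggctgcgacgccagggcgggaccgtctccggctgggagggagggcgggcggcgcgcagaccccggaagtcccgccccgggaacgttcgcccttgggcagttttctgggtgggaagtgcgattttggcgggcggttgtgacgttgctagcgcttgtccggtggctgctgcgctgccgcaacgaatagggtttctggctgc
UBE2T, chr1:202341887-202342186, minus strand: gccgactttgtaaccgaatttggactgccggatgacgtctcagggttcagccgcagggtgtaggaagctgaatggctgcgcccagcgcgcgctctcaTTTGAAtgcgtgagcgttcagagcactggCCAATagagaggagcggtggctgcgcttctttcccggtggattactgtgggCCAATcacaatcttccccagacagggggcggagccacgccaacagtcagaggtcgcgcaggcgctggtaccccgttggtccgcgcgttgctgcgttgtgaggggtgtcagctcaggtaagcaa
FANCD2, chr3:10026187-10026486, plus strand: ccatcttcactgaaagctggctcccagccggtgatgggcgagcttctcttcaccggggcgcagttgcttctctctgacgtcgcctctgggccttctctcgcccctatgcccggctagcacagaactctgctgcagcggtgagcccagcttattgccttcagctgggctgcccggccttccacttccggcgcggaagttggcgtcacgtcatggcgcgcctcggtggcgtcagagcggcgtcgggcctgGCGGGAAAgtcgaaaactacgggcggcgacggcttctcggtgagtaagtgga
EXO1, chr1:241847954-241848253, plus strand: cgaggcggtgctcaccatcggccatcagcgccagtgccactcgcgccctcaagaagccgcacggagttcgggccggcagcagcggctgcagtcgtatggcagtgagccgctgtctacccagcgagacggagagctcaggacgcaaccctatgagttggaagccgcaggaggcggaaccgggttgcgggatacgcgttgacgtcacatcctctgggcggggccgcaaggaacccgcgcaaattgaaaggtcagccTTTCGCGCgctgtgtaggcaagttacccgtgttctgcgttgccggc

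A promoter was listed for 38 of the 43 genes. An E2F site lay in 6 of them (XRCC2, FANCA, FANCC, FANCD2, EXO1 and TOPBP1), which is 15.8%, against 3.31% of all 35116 promoters of the table and 4.75% of those of other genes tested in KBM7. None of these 6 genes was called in either line, with log2 fold changes of -0.04 to 0.13 in KBM7 and -0.08 to 0.13 in K562 with the set term. A CCAAT box lay in 17 (44.7%, against 34.6% of all promoters) and a CHR element in 5 (13.2%, against 15.2%). The called genes RAD51D and RNF168 held none of these letters in the window, and UBE2T held 2 CCAAT boxes and 1 CHR element, none of which overlapped. Other spellings of these motifs were not searched. The BRCA1 window lay at chr17:43170278-43170577, upstream of the position of the gene in the counts, chr17:43044295-43125483. The result for BRCA1 rests on that window. Some other windows lay inside the gene as counted, and results for those genes rest on the start used. Among them were RAD51D (gene chr17:35092208-35121522), RAD52 (window chr12:949645-949944, gene chr12:912077-990053) and RBBP8 (window chr18:22933078-22933377, gene chr18:22798261-23026488).

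BRCA1 and BARD1 form a ubiquitin ligase that acts early in recombination, PALB2 links BRCA1 to BRCA2, BRCA2 acts in the step that follows resection, and BRIP1 is a helicase bound to BRCA1. Of these 5 genes, BRCA1 and BARD1 were higher in KBM7 and none was called in K562. BRCA1 had 155.1 and 165.4 normalized CPM in KBM7 with siUSP15, against 144.8 and 138.4 with siCtrl. Both knockdown libraries lay above both controls (log2 fold change 0.18, SE 0.05, adjusted p = 0.0175). In K562 BRCA1 had 132.8, 130.4, 128.8 and 135.6 with siUSP15, against 133.7, 142.6, 131.6 and 133.2 with siCtrl, and the groups overlapped (-0.04, SE 0.04, adjusted p = 0.514 with the set term).

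BARD1 had 38.3 and 36.1 normalized CPM in KBM7 with siUSP15, against 32.1 and 31.5 with siCtrl, again without overlap (log2 fold change 0.23, SE 0.06, adjusted p = 0.0193). In K562 its values were 18.8, 16.9, 20.3 and 19.3 with siUSP15, against 16.6, 16.8, 21.1 and 20.9 with siCtrl. BRCA2 had 44.4 and 47.8 in KBM7 with siUSP15, against 46.9 and 46.1 with siCtrl, and the groups overlapped (-0.02, adjusted p = 0.872). In K562 BRCA2 was below its controls in replicates 1 and 2 (27.3 and 26.9 with siUSP15, against 30.7 and 29.5 with siCtrl) and above them in replicates 3 and 4 (42.2 and 51.4 with siUSP15, against 39.0 and 41.7 with siCtrl). PALB2 and BRIP1 changed by -0.01 and 0.02 in KBM7 and by 0.04 and 0.10 in K562 with the set term, none past the threshold. The BRCA1 call was lost without either siCtrl library (adjusted p = 0.0678 and 0.131), and that of BARD1 without siCtrl 1, siCtrl 2 or siUSP15 1 (0.0771 to 0.106) and with DESeq2 (0.0993).

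RAD51B, RAD51C, RAD51D, XRCC2 and XRCC3 are related proteins that work together in complexes during strand exchange. RAD51D showed the largest increase of the 43 genes in KBM7. It had 33.5 and 34.3 normalized CPM with siUSP15, against 25.6 and 22.9 with siCtrl, a rise of 39.1% with no overlap (log2 fold change 0.48, SE 0.07, adjusted p = 0.000517). In K562 it had 19.9, 21.3, 21.7 and 21.2 with siUSP15, against 18.4, 18.2, 20.4 and 20.1 with siCtrl. The knockdown libraries were above the controls within each set but overlapped them across sets (0.13, SE 0.05, adjusted p = 0.104 with the set term). The KBM7 call held without each library in turn, with adjusted p up to 0.00492. In GENCODE a same-strand gene shares 8.7% of the RAD51D exon bases together with 2 small RNA genes. If the counting used these genes too, part of the RAD51D counts could be split or shared. The other 4 genes of this group were not called in either line, with XRCC2 at 0.13 (adjusted p = 0.0789) in KBM7 and RAD51B at -0.22 (adjusted p = 0.281) in K562.

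RAD52 anneals single strands, and RAD54L and RAD54B are motor proteins that remodel DNA during strand exchange. None of the 3 was called, with log2 fold changes of -0.07 (RAD54L) to 0.17 (RAD54B) in KBM7 and -0.13 (RAD54B) to 0.14 (RAD52) in K562 with the set term. Another gene, FSBP, shares 65.5% of the RAD54B exon bases.

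The Fanconi core complex (FANCA, FANCB, FANCC, FANCE, FANCF, FANCG, FANCL and FANCM here) is the ubiquitin ligase that, with the conjugating enzyme UBE2T, marks FANCD2 and FANCI. None of these 9 genes was called in KBM7, where they lay between -0.13 (FANCB) and 0.15 (FANCF). In K562 UBE2T fell, by 15.5% with the set term. It had 45.8, 42.8, 40.2 and 41.7 normalized CPM with siUSP15, against 55.6, 56.1, 45.7 and 44.5 with siCtrl. The knockdown libraries were below the controls of their own set, and overlapped those of the other set (log2 fold change -0.24, SE 0.05, adjusted p = 0.00957). Without siCtrl 2 the adjusted p was 0.0511. UBE2T in KBM7 had 42.7 and 39.1 with siUSP15, against 43.7 and 45.1 with siCtrl, below the controls but short of the threshold (-0.11, SE 0.06, adjusted p = 0.199). FANCA was above all controls in all 4 K562 knockdown libraries (110.5, 112.7, 112.0 and 128.2 with siUSP15, against 105.0, 103.1, 107.6 and 109.1 with siCtrl) and did not pass (0.13, SE 0.04, adjusted p = 0.0665).

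FANCD2 and FANCI form the clamp that the core complex marks, and SLX4 is the scaffold of nucleases that cut at the crosslink. FANCD2 had 125.8 and 125.2 normalized CPM in KBM7 with siUSP15, against 126.8 and 125.1 with siCtrl, and the groups overlapped (log2 fold change -0.01, 95% interval -0.10 to 0.09, adjusted p = 0.943). In K562 it had 125.6, 125.8, 121.7 and 124.0 with siUSP15, against 138.0, 134.3, 127.7 and 124.7 with siCtrl. It lay below the controls within each set, and the change of -0.08 did not pass (adjusted p = 0.123).

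SLX4 was above its controls in KBM7, and in K562 within each set but not across sets. It had 34.1, 32.4, 23.9 and 24.5 normalized CPM in K562 with siUSP15, against 29.8, 30.3, 19.9 and 22.4 with siCtrl, and passed only with the set term (0.17, SE 0.05, adjusted p = 0.0458). In KBM7 it had 41.3 and 39.7 with siUSP15, against 37.3 and 35.0 with siCtrl (0.16, SE 0.06, adjusted p = 0.0672). The K562 call was lost in 6 of the 8 fits that left out a library (all but those without siUSP15 2 and siCtrl 4), with adjusted p up to 0.118, and with DESeq2 (0.0668). FANCI was at -0.11 in KBM7 (adjusted p = 0.0948) and -0.06 in K562 (adjusted p = 0.16).

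MRE11A, RAD50 and NBN make up the MRN complex, which detects broken ends and, with RBBP8 (CtIP), begins their resection, while EXO1 and BLM extend it. In KBM7 RAD50 and NBN rose. RAD50 had 82.3 and 84.2 normalized CPM with siUSP15, against 70.9 and 68.1 with siCtrl, with no overlap (log2 fold change 0.26, SE 0.05, adjusted p = 0.00195), and the call held without each library in turn. NBN had 302.3 and 308.5 with siUSP15, against 273.5 and 262.6 with siCtrl, also without overlap (0.19, SE 0.04, adjusted p = 0.00671). The NBN call was lost without siCtrl 2 (0.0624). In GENCODE a readthrough gene on the same strand and TH2LCRR on the other strand share 91.0% of the RAD50 exon bases. Whether the annotation used for counting held these genes was not checked, so their effect on the RAD50 counts is uncertain.

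In K562 RAD50 had 164.5, 152.3, 174.9 and 171.1 normalized CPM with siUSP15, against 140.1, 147.1, 177.3 and 166.0 with siCtrl. NBN had 118.9, 122.9, 144.6 and 143.2 with siUSP15, against 99.4, 107.0, 145.9 and 138.3 with siCtrl. Both were above the controls in replicates 1 and 2 and overlapped them in replicates 3 and 4, and neither passed with the set term (log2 fold changes 0.08 and 0.12, adjusted p = 0.236 and 0.0979). MRE11A, the nuclease of the complex, was at 0.13 in KBM7 (adjusted p = 0.0663) and at -0.12 in K562 (adjusted p = 0.124). RBBP8, EXO1 and BLM lay between -0.07 and 0.05 in the 2 lines, none past the threshold.

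RPA1, RPA2 and RPA3 are the subunits of the single-strand binding protein. RPA2 fell in K562. It had 125.7, 136.9, 148.1 and 145.8 normalized CPM with siUSP15, against 143.8, 145.0, 172.6 and 164.2 with siCtrl, below the controls within each set but overlapping across sets (log2 fold change -0.17, SE 0.04, adjusted p = 0.0142). The call was lost without siCtrl 2 (0.0617) or siUSP15 1 (0.0699). In KBM7 RPA2 had 100.2 and 100.1 with siUSP15, against 97.7 and 91.9 with siCtrl (0.08, adjusted p = 0.242). RPA3 had the same log2 fold change in K562, -0.17, with a wider error (SE 0.06, adjusted p = 0.0896), and RPA1 was at 0.07 in KBM7 and 0.06 in K562.

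ATM and ATR are the kinases that signal breaks and stalled forks, CHEK1 and CHEK2 carry the signal on, and TOPBP1 activates ATR. None of the 5 was called in either line. CHEK1 was at -0.11 in KBM7 (adjusted p = 0.0861) and CHEK2 at 0.11 (adjusted p = 0.128), while ATM was at 0.18 in K562 (95% interval 0.02 to 0.33, adjusted p = 0.106).

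MDC1, RNF8, RNF168 and TP53BP1 act on chromatin beside a break: MDC1 binds phosphorylated H2AX, RNF8 and then RNF168 add ubiquitin, and TP53BP1 (53BP1) binds the RNF168 mark and limits resection. All 4 had negative log2 fold changes in KBM7 and, with the set term, in K562, and RNF168 and TP53BP1 were called lower in KBM7. The K562 sign came from replicates 1 and 2, where MDC1 was at -0.04, RNF8 at -0.17, RNF168 at -0.26 and TP53BP1 at -0.16. In replicates 3 and 4 alone the estimates were slightly positive, at 0.02 for MDC1, 0.03 for RNF8, 0.02 for RNF168 and 0.05 for TP53BP1, none past the threshold. RNF168 had the largest decrease of the 43 genes in KBM7, with 83.6 and 89.0 normalized CPM with siUSP15, against 111.7 and 112.2 with siCtrl. It fell by 23.0% with no overlap (log2 fold change -0.38, SE 0.05, adjusted p = 0.000139), and the call held without each library in turn. In K562 RNF168 had 69.98, 62.95, 58.1 and 62.0 with siUSP15, against 80.4, 79.0, 59.8 and 58.2 with siCtrl. It was lower in replicates 1 and 2 and overlapped its controls in replicates 3 and 4 (-0.12, SE 0.06, adjusted p = 0.174 with the set term).

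TP53BP1 had 108.3 and 116.3 normalized CPM in KBM7 with siUSP15, against 123.4 and 124.0 with siCtrl. The groups did not overlap, but the change was small (log2 fold change -0.14, SE 0.05, adjusted p = 0.0478). The estimate stayed at -0.14 to -0.13 with the replicate block, DESeq2, RLE size factors or no filter, while the adjusted p was 0.0516, 0.153, 0.0503 and 0.0557 in that order, short of the threshold. The call was also lost without siCtrl 1 (-0.14, adjusted p = 0.212), siCtrl 2 (-0.13, 0.221) or siUSP15 1 (-0.08, 0.29). In K562 TP53BP1 had 125.8, 115.5, 110.3 and 113.9 with siUSP15, against 136.0, 134.0, 106.1 and 110.7 with siCtrl, and the groups overlapped (-0.06, adjusted p = 0.428). TUBGCP4 on the other strand shares 36% of the TP53BP1 exon bases. RNF8 was at -0.17 in KBM7 (adjusted p = 0.0649) and MDC1 at -0.08 (adjusted p = 0.186).

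**Figure D3:**
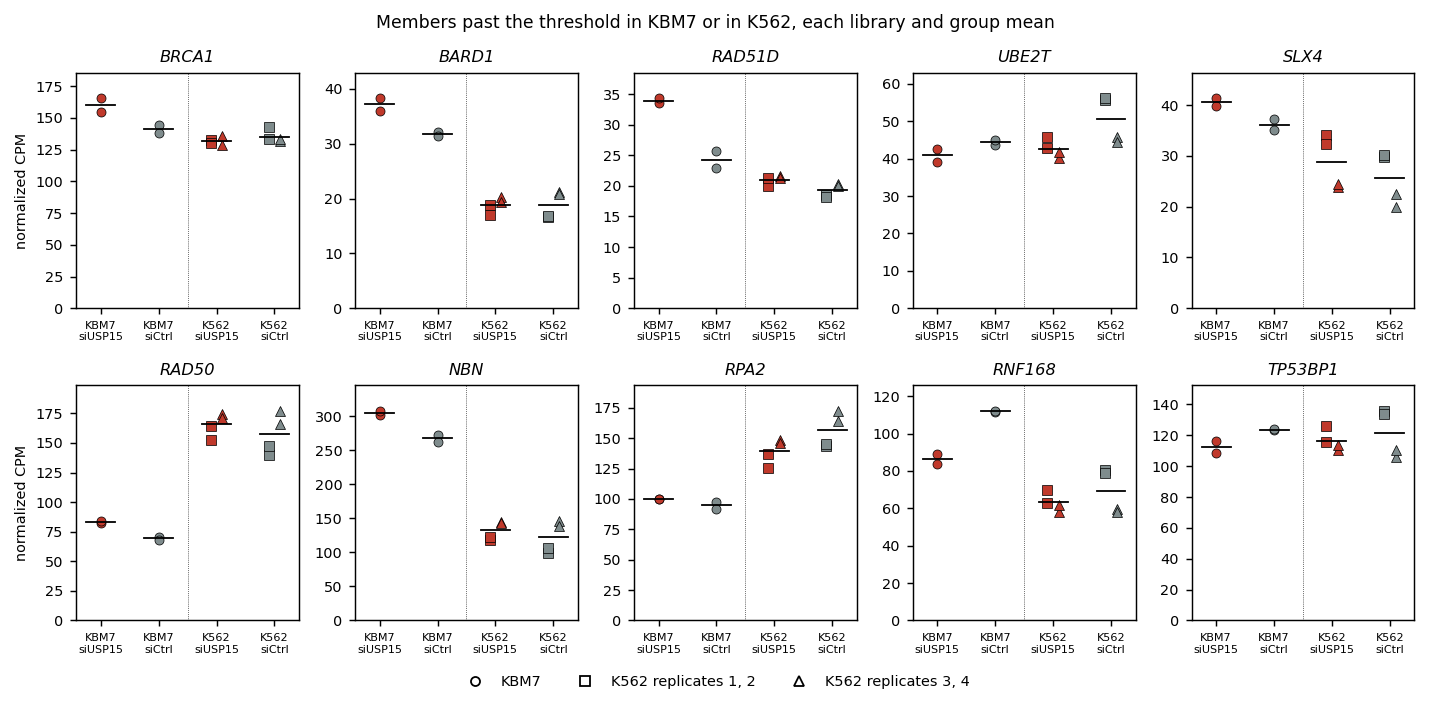
Normalized CPM of the 10 genes called in KBM7 or in K562 with the set term, in each library, siUSP15 in red and siCtrl in grey, with group means as bars. Squares are K562 replicates 1 and 2 and triangles replicates 3 and 4. In KBM7 RAD51D lies at 33.5 and 34.3 with siUSP15 against 25.6 and 22.9 with siCtrl, and RNF168 at 83.6 and 89.0 against 111.7 and 112.2.

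Levels per length were compared as normalized CPM per kb of the MANE Select transcript. In KBM7 siCtrl libraries FANCI was highest, at 113.2 ± 1.5 (SD, n = 2), and RAD51D lowest, at 2.44 ± 0.19, and in K562 siCtrl libraries RPA2 was highest, at 98.7 ± 8.8 (SD, n = 4), and RAD51D lowest, at 1.93 ± 0.11. The RAD51D transcript used is 9.97 kb long, and its place at the low end rests on that length. RPA2 at 59.8 ± 2.6 and NBN at 58.0 ± 1.7 in KBM7 siCtrl libraries did not differ beyond their spread. The lines differed more than the siRNAs did for some genes, such as NBN, at 58.0 in KBM7 and 26.5 in K562, and RAD50, at 8.40 in KBM7 and 19.1 in K562, all in siCtrl libraries. The counts of the lines were deposited apart, with different label prefixes, so line and any difference in handling cannot be told apart here.

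**Figure D4:**
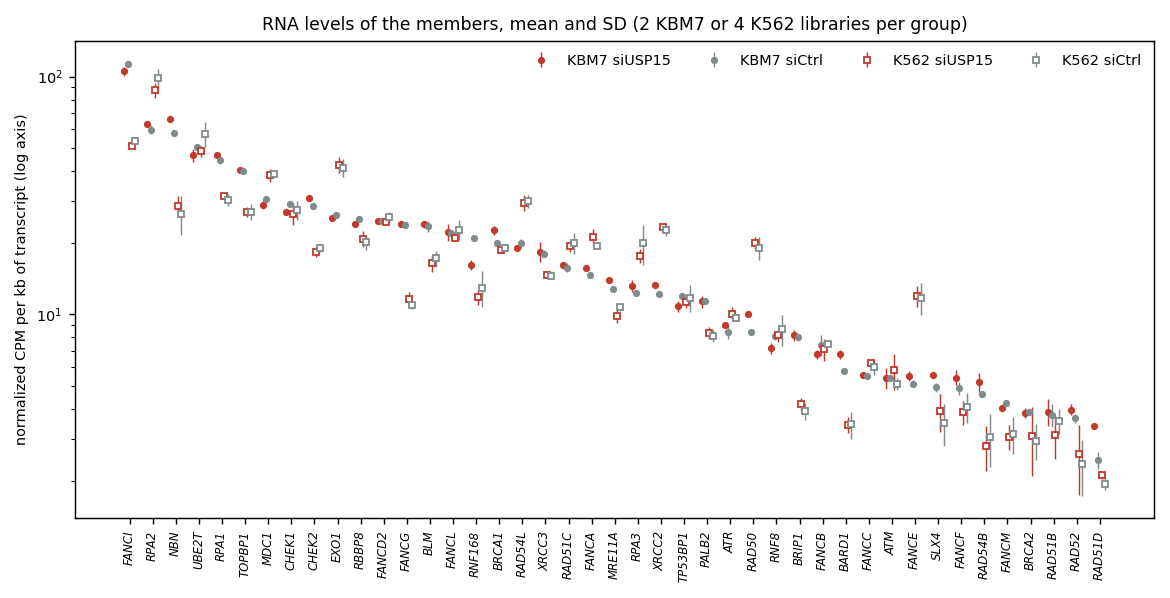
Normalized CPM per kb of transcript on a log axis for the 43 genes, ordered by the KBM7 siCtrl level. Points are group means and bars SD, filled for KBM7 and open for K562, red for siUSP15 and grey for siCtrl. FANCI leads in KBM7 at 113.2 and RPA2 in K562 at 98.7 in siCtrl libraries.

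Whether the 2 lines responded differently was tested directly, as the interaction of line and siRNA over all 12 libraries with the K562 set as a term. BRCA1, RAD51D, MRE11A and RPA2 responded more positively in KBM7 than in K562. That is 9.3% of the 43 genes, against 16% of 15833 genes (7.94% higher and 8.03% lower). The difference was 0.22 for BRCA1 (SE 0.07, adjusted p = 0.0279), 0.35 for RAD51D (SE 0.09, adjusted p = 0.0165), 0.25 for MRE11A (SE 0.08, adjusted p = 0.0368) and 0.25 for RPA2 (SE 0.07, adjusted p = 0.0225). None was lower in KBM7 by edgeR, DESeq2 or limma-voom, and 1 was at an unadjusted p under 0.05, RNF168, at -0.25 (adjusted p = 0.0697). Without the set term none of the 43 was called, and with the replicate block RAD51D and RPA2 were. Among the 43 genes these calls did not hold without KBM7 siCtrl 2 or KBM7 siUSP15 2, and without KBM7 siUSP15 1 that of BRCA1 alone held. Other genes of the table were still called in those fits.

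Within K562 the response differed between the sets for 5 genes. The difference, replicates 3 and 4 minus replicates 1 and 2, was 0.36 for BRCA2 (SE 0.11, adjusted p = 0.0423), 0.31 for RPA3 (SE 0.08, 0.0229), 0.29 for RNF168 (SE 0.08, 0.0231) and 0.21 for TP53BP1 (SE 0.07, 0.0418), and -0.21 for NBN (SE 0.06, 0.0392). That is 11.6% of the 43 genes, against 13% of all genes (6.08% higher and 6.91% lower), and each of the 5 was lost in 5 or 6 of the 8 fits that left out a library, including those without siCtrl 1, siUSP15 2 or siUSP15 4. In replicates 1 and 2 alone 3 of the 43 genes were higher (RAD50, NBN and RPA1) and 7 lower (FANCL, UBE2T, MRE11A, RPA3, RNF8, RNF168 and TP53BP1), against 17.3% of all genes higher and 17.1% lower. In replicates 3 and 4 alone only RPA2 was called, lower, against 1.03% of all genes higher and 0.978% lower. USP15 itself was lowered less in replicates 3 and 4, at -0.79 against -1.11 on the log2 scale (difference 0.32, SE 0.08, adjusted p = 0.0128). The part of this in the genes' difference was not tested.

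Of 62 further recombination and crosslink repair genes tested, 5 were higher in KBM7 (8.06%, against 13.2% of all genes) and 3 lower (4.84%, against 15.8%). In K562 with the set term 2 were higher (3.23%, against 6.88%) and 6 lower (9.68%, against 8.9%). The medians were 0.02 in KBM7 and -0.01 in K562. K562 counts of these genes and of the lists that follow are with the set term, and without it edgeR called none of them. In KBM7 RFWD3, a ubiquitin ligase of the Fanconi pathway, was at 0.18 (adjusted p = 0.00854) and the checkpoint kinase WEE1 at 0.18 (adjusted p = 0.00987). In K562 the checkpoint clamp loader RAD17 was at -0.25 (adjusted p = 0.00669) and ABRAXAS1, of a BRCA1 complex, at -0.24 (adjusted p = 0.0106). Of 14 end joining genes, 4 were higher in KBM7 (28.6%, against 13.2% of all genes) and 2 lower (14.3%, against 15.8%). In K562 0 were higher (against 6.88%) and 2 lower (14.3%, against 8.9%). The nuclease DCLRE1C (Artemis) was at 0.37 (adjusted p = 0.00306) and APTX at 0.33 (adjusted p = 0.00295) in KBM7. The ligase LIG3 was at -0.18 in K562 (adjusted p = 0.0178, and 0.0531 with the replicate block).

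Of 38 S-phase and proliferation genes, 5 were higher and 5 lower in KBM7 (13.2% each way, against 13.2% and 15.8% of all genes). In K562 3 were higher (7.89%, against 6.88% of all genes) and 5 lower (13.2%, against 8.9%). Between the K562 sets, replicates 3 and 4 minus replicates 1 and 2, 0 differed upward and 9 downward (23.7%, against 6.91% of all genes). CDC6 and CCNE2, which act in the start of replication, fell by 0.30 and 0.29 on the log2 scale in KBM7 (adjusted p = 0.000372 and 0.00114), and the mitotic kinase AURKB fell by 0.21 in K562 (adjusted p = 0.00584). Of genes that p53 induces, 4 of 22 were higher in KBM7 (18.2%, against 13.2% of all genes) and 7 lower (31.8%, against 15.8%), with the cell cycle inhibitor CDKN1A at 0.50 (adjusted p = 4.01e-05) and the phosphatase PPM1D at -0.44 (adjusted p = 0.000277). In K562 0 of 21 were higher and 9 lower (42.9%, against 8.9% of all genes), with ZMAT3 at -0.56 (adjusted p = 0.00256) and SESN2 at -0.38 (adjusted p = 0.00258). The summed level of this list was 988 to 1020 normalized CPM with siUSP15 and 1071 to 1162 with siCtrl in K562, and 1296 to 1311 with siUSP15 and 1349 to 1353 with siCtrl in KBM7, without overlap in either line.

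Leukemia line markers also moved in KBM7, where 3 of 10 tested were higher (30%, against 13.2% of all genes) and 5 lower (50%, against 15.8%). Their summed level was 1496 to 1501 normalized CPM with siUSP15 and 1655 to 1683 with siCtrl in KBM7, and that of markers of other cell types was 81.3 to 83.8 with siUSP15 and 104 to 112 with siCtrl. Their part in the results above was not tested.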

How the data were processed

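RNA of KBM7 and K562 cells was sequenced from 12 libraries. Per the labels and the paper's methods, TruSeq libraries were aligned with TopHat2 2.1.0 to hg38 against Ensembl genes. The labels name HTSeq for counting and the paper names another counter, and use of strand is not given in the sources used here. The authors deposited counts per gene for each line, all whole numbers, which were used. They also deposited 12 columns of log2 values and their own fold changes and p-values, which were not used. The K562 deposit is named batch corrected, but its counts still separated into the sets described above. That name was part of the reason for the set term.

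In R 4.3.3, low counts were removed by filterByExpr and TMM factors computed. edgeR 4.0.16 then fitted glmQLFit and glmQLFTest (2-sided), with p-values adjusted by Benjamini-Hochberg over all genes tested. DESeq2 1.42.0, limma 3.58.1 (voom), RLE factors, no filter, omission of each library and replicate blocks were alternatives. Lengths and overlaps came from GENCODE MANE Select transcripts, promoters from RefSeq. This GENCODE release was not compared with the Ensembl genes used for counting. The genes, lists and set term were chosen with earlier results of these data known.

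Same-numbered K562 libraries deviated together from their group means (correlations 0.592 to 0.753 over 4 pairs, 3 of 4 libraries best with their own number). Those means span both sets, so the set difference alone raises these correlations, and they cannot show pairing within a set. The replicate block pairs libraries by the numbers in the sample titles, which is an assumption. Some K562 column headers carry other numbers. In KBM7 the correlation was -0.0041 over 2 pairs. Named genes were USP15, all 43 genes, called genes with values per library (with BRCA1, BRCA2, FANCD2 and TP53BP1 in any case), and at most 2 genes per other list and line by lowest p. Some genes that this rule selects are not reported here. FANCA, XRCC2 and other uncalled genes with values were singled out after these were seen.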

Additional observations from a re-analysis of the deposited data

Results flagged for a closer look

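The response to siUSP15 differed between the lines for 4 genes by the test of the difference itself, KBM7 minus K562 on the log2 scale: BRCA1 by 0.22, RAD51D by 0.351, MRE11A by 0.254 and RPA2 by 0.25. That is 9.3% of the 43 genes, against 7.94% of all genes in this direction. The count was 0 without the set term, 2 with the replicate block and 0 without KBM7 siCtrl 2 or KBM7 siUSP15 2. MRE11A passed in neither line alone, being at 0.13 in KBM7 and -0.12 in K562.

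Between the K562 sets, replicates 3 and 4 minus replicates 1 and 2, it differed for 5 genes: BRCA2 by 0.358, NBN by -0.211, RPA3 by 0.308, RNF168 by 0.292 and TP53BP1 by 0.214. That is 11.6% of the 43 genes, against 13% of all genes, and each of the 5 calls was lost in 5 or 6 of the 8 fits that left out a library. RNF168 and TP53BP1, lower in KBM7, were lower in K562 replicates 1 and 2 alone (-0.26 and -0.16, edgeR adjusted p = 0.00349 and 0.0234) and at 0.02 and 0.05 in replicates 3 and 4 alone.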

How the results depend on the processing

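In KBM7 the count of lower genes was 1 in place of 2 under DESeq2, RLE size factors, the replicate block or no filter. In K562 without any term the count was 0, with the replicate block 2 and with the library sets as a term 3. With the sets as a term, the count higher (1) was 4 with no filter and 0 with DESeq2, with the replicate block and without the set term, and the count lower (2) was 0 without the set term. Replicates 1 and 2 alone gave 3 higher and 7 lower. Replicates 3 and 4 alone gave 0 higher and 1 lower. In the interaction the count higher in KBM7 (4) was 0 without the set term and 2 with the replicate block, and the count lower (0) was 1 with no filter. The count of genes that differed between sets (5) was 3 with no filter and 1 with DESeq2.

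Leaving out each library gave 2 to 8 higher and 1 to 4 lower in KBM7, 0 to 0 in K562 without a term, 0 to 2 higher and 0 to 3 lower with the sets as a term, 0 to 5 higher and 0 to 1 lower in the interaction, and 0 to 9 between sets. The median log2 fold change of the 43 genes ran between 0.0094 and 0.0706 for KBM7 and between -0.0266 and -0.00423 for K562. In KBM7 the count higher was lowest without siCtrl 2, and both counts were highest without siUSP15 2. Calls over all KBM7 genes also fell without siCtrl 2 and rose without siUSP15 2, so this was not particular to the 43. The cause was not tested. In K562 with the sets as a term, leaving out a library gave 555 to 2639 calls over all genes, against 2167 with every library. Calls over all genes also varied in the interaction and between the sets. For the 21 single-gene results that were called, the alternatives gave 268 values, of which 172 were called, 96 were not and 0 had the other sign. For the 37 that were not called they gave 527 values, of which 18 were called and 30, none of them called, had the other sign. Among the 43 genes the replicate block ended the calls of TP53BP1 in KBM7, SLX4 in K562, and BRCA1 and MRE11A in the interaction. Those of RAD51D and RPA2 in the interaction held. Of the other lists, it ended that of LIG3 in K562. Over all K562 genes it gave 1022 calls, against 2167 with the set term. With 2 libraries per group in KBM7, small changes can be missed.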
